A study of Mus musculus with 9 samples.

Results

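The Wnt pathway genes described here are a list of 50 mouse genes: 19 Wnt ligands, 10 Frizzled receptors, 7 secreted inhibitors of the Dickkopf and Sfrp families, 6 feedback regulators or targets, 4 R-spondins and 4 nuclear effectors. They were chosen by name, with no measured value in the rule, though earlier results of these data were known at the time. All 50 were found among the 48440 genes of each count table. RNA with a poly(A) tail was sequenced from J1 embryonic stem cells of genotype Suz12-AID, in which Suz12, part of the Polycomb complex PRC2, bears a degron tag through which auxin triggers loss of the protein. There were 3 groups with 3 biological replicates each. Mock was the control, Auxin cells were kept in 50 µM auxin (indole-3-acetic acid) for 96 h, and Reintroduction cells came from a washout of 4.5 h after that treatment. The comparisons ask which transcripts differ after auxin treatment meant to deplete Suz12, and how far they differ after the washout.

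What the groups share bears directly on the Wnt pathway. All carried the Suz12 degron, and all were grown in serum medium with LIF, 1 µM of the MEK inhibitor PD0325901 and 3 µM of the GSK3 inhibitor CHIR99021. No cells without the tag but with auxin were analysed here, so a response to auxin itself and a response to Suz12 loss cannot be told apart. The labels do not say what Mock cells received, or whether the line is 1 clone.

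Wnt proteins are secreted, lipid-modified ligands that bind Frizzled receptors together with an Lrp coreceptor. In the canonical branch this stops a destruction complex in which GSK3 marks beta-catenin for degradation, and beta-catenin then joins TCF and LEF proteins on DNA to switch on target genes, several of which encode feedback inhibitors of the pathway. CHIR99021 blocks GSK3 inside the cell, so it activates beta-catenin below the ligands and receptors, and it is used in stem cell medium to support self-renewal. PRC2 places a repressive methyl mark on histone H3, mainly at CpG-rich promoters of developmental genes.

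TCF and LEF proteins bind DNA words such as CTTTGAA and CTTTGAT. Both words were searched on both strands in RefSeq promoter windows of GRCm38.p6, each 300 bases long, from 250 before to 50 after a RefSeq transcription start. A window was found for 35 of the 50 genes, and 4 of those 35 (11.4%) held a match, against 9.88% of 27018 genes and 8.65% of 32841 windows genome-wide. The 4 matches are shown because their genes, Sp5, Wnt5b, Dkk1 and Wnt11, are all described below, with the word in capitals, 5′ to 3′ on the gene's strand. Positions are chr2:70474772-70474872 (plus strand) for Sp5, chr6:119449404-119449504 (minus strand) for Wnt5b, chr19:30549560-30549660 (minus strand) for Dkk1 and chr7:98835014-98835111 (plus strand) for Wnt11. Counted from the RefSeq start, the word begins at -104 in Sp5, -71 in Wnt5b, -117 in Dkk1 and -51 in Wnt11. Wnt5b has several RefSeq starts, and the match lies at a downstream one. In Wnt11 the word is on the opposite strand and reads ATCAAAG here.
Sp5: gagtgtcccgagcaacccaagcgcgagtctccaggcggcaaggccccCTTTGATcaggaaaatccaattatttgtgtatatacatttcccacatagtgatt
Wnt5b: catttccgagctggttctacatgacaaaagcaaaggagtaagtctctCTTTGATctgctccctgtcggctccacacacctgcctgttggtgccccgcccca
Dkk1: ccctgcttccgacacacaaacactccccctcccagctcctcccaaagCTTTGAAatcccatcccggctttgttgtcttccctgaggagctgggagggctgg
Wnt11: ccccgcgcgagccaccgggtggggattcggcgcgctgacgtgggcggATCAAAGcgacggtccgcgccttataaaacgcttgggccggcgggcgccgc

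Such a match is a description of letters and not of binding, and binding was not measured in these libraries. The windows of the Wnt genes were rich in CpG. In the counts by gene that follow, a Wnt gene with several windows stands with the window that held the most CpG. Wnt5b, for example, stands at 47, and its other windows held 4 and 7. The median over all RefSeq windows made no such choice, so the values are not on the same footing. Over all RefSeq windows the median was 7 CpG dinucleotides per window, whereas the 9 genes with a window that were higher in Auxin than in Mock had a median of 38 (range 16 to 58) and the 11 that were lower had a median of 29 (range 6 to 47). The 6 that were tested and not called had a median of 28.5 (range 6 to 53) and the 9 not tested 26 (range 6 to 42). A pair of promoters whose genes changed in opposite directions are shown with each CpG in capitals: the 250 bases before the RefSeq start of Axin2, at chr11:108920099-108920348 (plus strand), with 24 CpG, and of Fzd7, at chr1:59481897-59482146 (plus strand), with 17 CpG.
Axin2: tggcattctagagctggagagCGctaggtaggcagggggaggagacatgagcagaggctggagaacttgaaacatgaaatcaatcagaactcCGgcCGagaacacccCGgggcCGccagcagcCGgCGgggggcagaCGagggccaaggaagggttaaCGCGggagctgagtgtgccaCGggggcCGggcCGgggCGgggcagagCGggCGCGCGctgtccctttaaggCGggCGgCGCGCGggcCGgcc
Fzd7: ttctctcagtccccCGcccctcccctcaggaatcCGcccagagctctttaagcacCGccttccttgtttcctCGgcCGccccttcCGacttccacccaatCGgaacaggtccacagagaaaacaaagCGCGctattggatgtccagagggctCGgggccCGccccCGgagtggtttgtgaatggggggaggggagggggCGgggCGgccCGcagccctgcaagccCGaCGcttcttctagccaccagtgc

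The libraries held between 44341283 and 113931419 counts, with the mates of a pair counted singly. Suz12 mRNA was present in every library, at 125.5 to 137.5 CPM in Mock, 121.9 to 152.2 CPM in Auxin and 164 to 172.6 CPM in Reintroduction (CPM, counts scaled to a common library size with TMM factors). The degron acts on the protein, which was not measured here. Pluripotency markers were high in all libraries, with 12 genes summing to 6511 to 6710 CPM in Mock, 8047 to 8636 CPM in Auxin and 6335 to 6411 CPM in Reintroduction. In Auxin against Mock 8 of the 12 were higher and 3 lower, with log2 fold changes of -0.53 for Pou5f1, -1.16 for Dppa5a and -1.03 for Utf1. Markers of other cell types moved between groups. In the same order of groups, 9 primitive endoderm markers summed to 34.7 to 36.7, 57.1 to 58.7 and 50.2 to 52.9 CPM, 8 trophoblast markers to 77.2 to 82.7, 141.3 to 157.9 and 174.3 to 176.5 CPM, 7 fibroblast markers to 17.8 to 20.0, 39.1 to 46.4 and 37.4 to 38.8 CPM, and 7 neural markers to 113.4 to 123.4, 81.6 to 98.1 and 80.6 to 83.2 CPM. In Auxin against Mock, 8 of 9 tested primitive endoderm markers were higher and 1 lower, and 5 of 7 tested trophoblast markers higher and 2 (Cdx2 and Eomes) lower. In the same comparison 1 of 3 tested fibroblast markers (Thy1) was higher and 1 (Col1a1) lower, and 3 of 5 tested neural markers were lower. The fibroblast markers Col3a1, Postn, Dcn and Lum did not pass the low-count filter. Of all genes tested in this comparison, 38.4% were called higher and 34.8% lower at the threshold given below. The 6 markers of 2-cell-like cells summed to 0.326 to 0.631 CPM in Mock, at most 0.0262 CPM in Auxin and at most 0.0735 CPM in Reintroduction. Of these only Zscan4c passed the filter, and it was lower than in Mock in Auxin (adjusted p = 0.000434), where all 3 libraries had none, and in Reintroduction (adjusted p = 0.00267), while no marker on these lists was at 0 in all 9 libraries. The part of such cells in the results below was not tested, and in bulk RNA fewer cells of a type cannot be told from less RNA per cell. The libraries also differed in how counts related to gene length: per doubling of length, the deviation from the mean library was between -0.246 and -0.168 (log2) in Mock, 0.15 and 0.154 in Auxin replicates 1 and 3, and between 0.083 and 0.097 in Reintroduction, while Auxin replicate 2 stood apart from its group at 0.013.

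A low-count filter passed 39 of the 50 genes. Differences were tested with edgeR's quasi-likelihood test over all 20838 genes that passed, with Benjamini-Hochberg adjustment, and the threshold for a call was an adjusted p under 0.05. In Auxin against Mock, 29 of the 39 were called, 13 higher and 16 lower, where 73.2% of all genes tested were called (38.4% higher, 34.8% lower). In Reintroduction against Auxin, 20 were called, 13 higher and 7 lower, against 50.9% of all genes (25.5% in each direction), and with libraries scaled by total counts in place of TMM factors the split was 11 higher and 10 lower. In Reintroduction against Mock, 28 were called, 12 higher and 16 lower, against 68.1% of all genes (34.7% higher, 33.4% lower). With a change of at least 2-fold also required, 19, 10 and 16 of the 39 passed in the 3 comparisons, against 31.8%, 11.0% and 22.4% of all genes. Without that requirement the share of Wnt genes called was close to that of all genes in each comparison. Leaving out Auxin replicate 2 gave 28 calls in Auxin against Mock and 21 in Reintroduction against Auxin. The 3 comparisons share libraries in pairs, so each gene's values in them are given side by side and not as independent evidence. Counting took no account of strand, and Wnt5a, Wnt7b, Wnt11, Fzd5, Sfrp2, Axin2, Notum, Lef1, Tcf7l1 and Ctnnb1 share exon sequence with another annotated gene, so their values are less certain.

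Counts and medians by role follow, with no test between roles. In Auxin against Mock, 7 of 10 Frizzled receptors were higher and 2 lower, where the 7 include Fzd5, whose sign depended on the processing. In the same comparison 5 of 6 tested secreted inhibitors and 4 of 6 feedback or target genes were lower. The shares called in either direction were 90% of Frizzleds, 100% of tested inhibitors and 66.7% of feedback or target genes, against 73.2% of all genes. The median log2 fold change was 0.76 for the Frizzleds, -1.11 for the inhibitors, -1.48 for the feedback and target genes and -0.22 for the 12 tested ligands, against 0.05 for all genes. In Reintroduction against Auxin the medians were 0.02, 0.21, 0.58 and 0.88, against 0.00 for all genes. In Reintroduction against Mock they were 0.45, -0.93, -0.85 and 0.27, against 0.03 for all genes. Scaling by total counts moved the median of all genes by up to 0.21, to 0.26, -0.08 and 0.16 in the 3 comparisons in that order. Mock and Auxin libraries also differed in how counts related to gene length. The medians by role were not computed with these length trends removed.

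**Figure D1:**
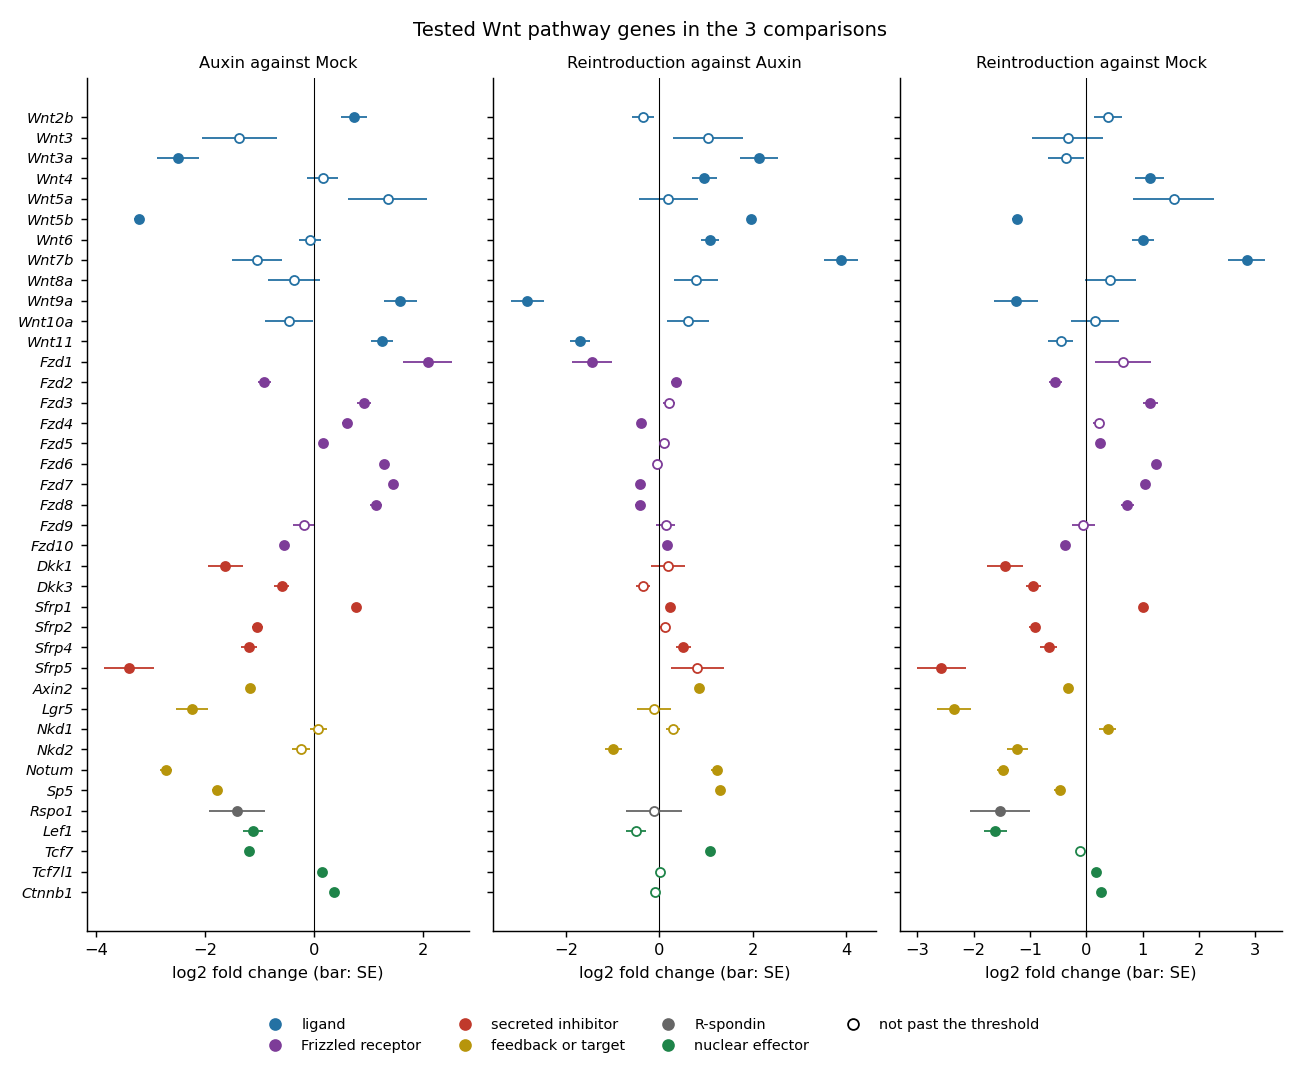
Log2 fold change of each of the 39 tested Wnt pathway genes (points, with bars for the standard error) in the 3 comparisons, coloured by role, with open points for genes not past the threshold. The horizontal scale differs between panels. In Auxin against Mock most Frizzled points lie to the right of 0 and most inhibitor and feedback points to the left.

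Among the ligands, Wnt5b lost most of its transcript in Auxin and regained part of it after washout, Wnt11 and Wnt9a went the other way, and Wnt6, Wnt7b and Wnt4 were highest after washout. Of the 12 tested ligands, 3 were higher and 2 lower in Auxin against Mock, 5 higher and 2 lower in Reintroduction against Auxin, and 3 higher and 2 lower in Reintroduction against Mock. The shares called were 41.7%, 58.3% and 41.7%, against 73.2%, 50.9% and 68.1% of all genes tested. Ligands were called less often than all genes in both comparisons with Mock. Most of them had low counts, which widen the SE and make a call harder to reach. In Auxin against Mock the SE was 0.691 for Wnt3 and 0.725 for Wnt5a, neither called, against 0.0891 for Wnt5b. How far low counts lower these shares was not tested. The only tested ligand above 5 CPM in any library was Wnt5b.

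Wnt5b (ENSMUSG00000030170.14; mm10 chromosome 6, 119432531 to 119544347) encodes a ligand best known for signalling without beta-catenin. It stood at 20.4, 19.3 and 19.9 CPM in Mock replicates 1 to 3, 2.07, 2.26 and 2.09 CPM in Auxin and 7.88, 9.47 and 8.01 CPM in Reintroduction. The 3 groups did not overlap, with Auxin lowest and Reintroduction between the other two. Wnt5b fell by 3.21 on the log2 scale in Auxin against Mock (SE 0.0891, adjusted p = 2.37e-10), which is 9.27-fold lower. It was 3.93-fold higher in Reintroduction than in Auxin (log2 1.98, SE 0.0896, adjusted p = 2.74e-08) and still 2.36-fold lower than in Mock (log2 -1.24, SE 0.0794, adjusted p = 2.19e-07). The promoter word shown above lies at 1 of the starts of this gene.

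Wnt11 (ENSMUSG00000015957.12; chromosome 7, 98835112 to 98855195) encodes a ligand known for guiding cell movements in the embryo, and it changed in the opposite direction. Its level was 2.01, 2.08 and 1.22 CPM in Mock, 3.49, 4.42 and 4.78 CPM in Auxin and 1.49, 1.02 and 1.31 CPM in Reintroduction. The Auxin libraries lay above all others, and Mock and Reintroduction overlapped. Wnt11 rose by 1.24 (log2, SE 0.201, adjusted p = 0.000172) in Auxin against Mock and fell by 1.70 on the log2 scale in Reintroduction against Auxin (SE 0.212, adjusted p = 5.73e-05). The difference between Reintroduction and Mock, a log2 fold change of -0.46 (adjusted p = 0.0867), did not pass, and without Mock replicate 3 it was -0.68 and passed (adjusted p = 0.00938).

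Wnt7b (ENSMUSG00000022382.14; chromosome 15, 85535439 to 85581821), a ligand known from placenta and lung, was nearly silent in Mock and Auxin. It stood at 0.175, 0.181 and 0.168 CPM in Mock, 0.0732, 0.144 and 0.0292 CPM in Auxin and 0.954, 1.51 and 1.36 CPM in Reintroduction. Every Reintroduction library was above every other library. The rise of Wnt7b was 14.9-fold against Auxin (log2 3.89, SE 0.373, adjusted p = 7.76e-06) and 7.18-fold against Mock (log2 2.84, SE 0.327, adjusted p = 1.64e-05). Without Auxin replicate 2 the log2 fold change against Auxin was 4.52, and the difference between Auxin and Mock, -1.05 with all libraries (adjusted p = 0.0566), was -1.70 and passed (adjusted p = 0.00883). Wnt7b shares exon sequence with the gene AU022754, and strand was not used in the counting.

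Wnt6 (ENSMUSG00000033227.7; chromosome 1, 74771892 to 74785322), a ligand associated with epithelial tissues, stood at 1.98, 1.36 and 1.66 CPM in Mock, 1.74, 1.81 and 1.18 CPM in Auxin and 2.77, 3.48 and 3.88 CPM in Reintroduction. Mock and Auxin overlapped, and all Reintroduction libraries were higher. Wnt6 rose by 1.09 (log2, SE 0.197, adjusted p = 0.000819) in Reintroduction against Auxin and by 1.01 (SE 0.194, adjusted p = 0.000768) against Mock. Auxin against Mock gave -0.08 for Wnt6 (adjusted p = 0.732), with a sign that changed to 0.13 when libraries were scaled by total counts.

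The other called ligands were low, with at most 1.15 CPM in any library. Wnt3a, the ligand that drives trunk mesoderm in the embryo, had 0.602, 0.326 and 0.588 CPM in Mock, 0.0854, 0.118 and 0.0584 CPM in Auxin and 0.314, 0.512 and 0.380 CPM in Reintroduction. It was lower in Auxin than in Mock (log2 -2.50, SE 0.387, adjusted p = 0.000122) and higher in Reintroduction than in Auxin (log2 2.14, SE 0.405, adjusted p = 0.00113), and the Reintroduction and Mock libraries overlapped. Wnt9a, known from joint formation, had 0.272, 0.254 and 0.336 CPM in Mock, 1.15, 0.748 and 0.657 CPM in Auxin and 0.0878, 0.200 and 0.0980 CPM in Reintroduction, so that the washout libraries were the lowest. Its log2 fold changes were 1.58 in Auxin against Mock (SE 0.301, adjusted p = 0.000589), -2.83 in Reintroduction against Auxin (SE 0.357, adjusted p = 6.18e-05) and -1.25 in Reintroduction against Mock (SE 0.394, adjusted p = 0.0152). The last of these no longer passed without Reintroduction replicate 1 (log2 -1.06, adjusted p = 0.0641) or replicate 3 (log2 -1.12, adjusted p = 0.0594).

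Wnt4, a ligand of kidney and gonad development, was higher in Reintroduction than in Auxin (log2 0.97, SE 0.265, adjusted p = 0.0104) and than in Mock (log2 1.12, SE 0.264, adjusted p = 0.00289). Without Reintroduction replicate 1 the Wnt4 difference from Auxin was 0.82 and did not pass (adjusted p = 0.0528). Wnt2b was higher in Auxin than in Mock (log2 0.73, SE 0.24, adjusted p = 0.0165), a call lost without Auxin replicate 3 (log2 0.52, adjusted p = 0.0881). Wnt3, Wnt5a, Wnt8a and Wnt10a were tested and called in no comparison, with at most 0.355 CPM in a library and log2 fold changes between -1.37 for Wnt3 in Auxin against Mock and 1.55 for Wnt5a in Reintroduction against Mock. Wnt1, Wnt2, Wnt7a, Wnt8b, Wnt9b, Wnt10b and Wnt16 did not pass the filter and had between 0 and 13 counts in any library.

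**Figure D2:**
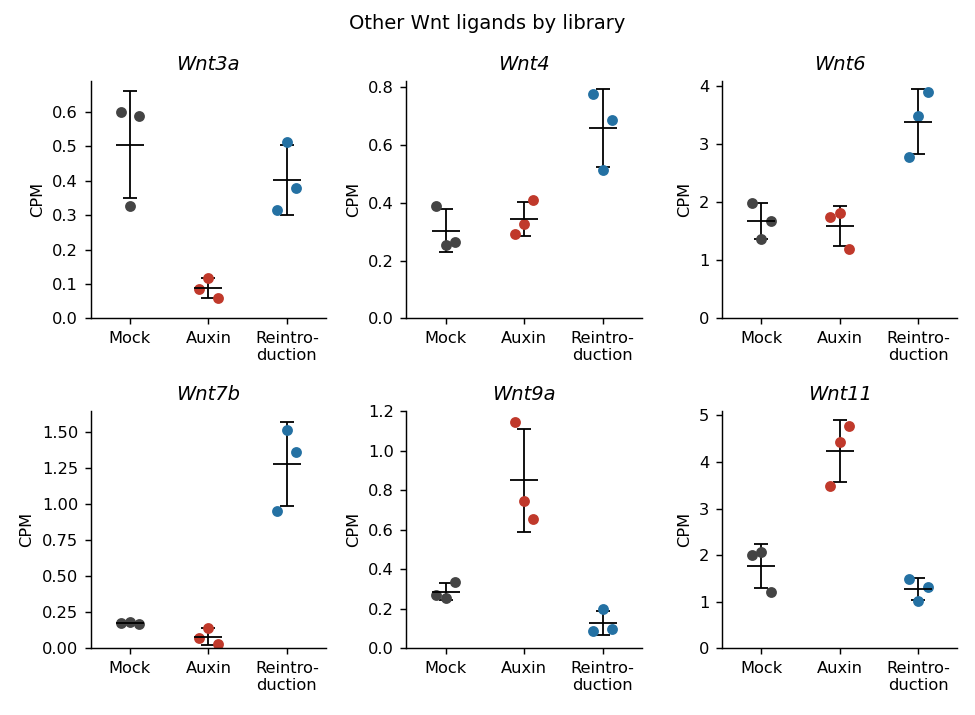
CPM of Wnt3a, Wnt4, Wnt6, Wnt7b, Wnt9a and Wnt11 in each library (points), with the group mean and SD (horizontal lines and bars, n = 3), on linear axes from 0. Wnt7b in Reintroduction lies between 0.954 and 1.51 CPM, above all Mock and Auxin libraries, and Wnt11 is highest in Auxin.

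Frizzled proteins are the receptors for Wnt ligands. Per kilobase of exon, Fzd5 was the most abundant Frizzled transcript in each group at 29.0, 32.3 and 34.5 CPM per kb (means in Mock, Auxin and Reintroduction). Fzd10 followed in Mock at 22.4 CPM per kb and Fzd7 was next at 11.3, whereas in Auxin Fzd7 reached 31.0 and Fzd10 was at 15.2 CPM per kb. The remaining Frizzleds had group means between 0.0496 and 3.30 CPM per kb.

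Fzd7 (ENSMUSG00000041075.8; chromosome 1, 59482424 to 59486955), a receptor known for its role in stem cell self-renewal, had the smallest adjusted p of the 10 in Auxin against Mock. It stood at 49.4, 53.0 and 51.3 CPM in Mock, 142, 145 and 135 CPM in Auxin and 102, 106 and 108 CPM in Reintroduction. No group overlapped another, and Reintroduction lay between Mock and Auxin. Fzd7 rose 2.74-fold in Auxin (log2 1.46, SE 0.0524, adjusted p = 1.24e-09), was 1.34-fold lower in Reintroduction than in Auxin (log2 -0.42, SE 0.0514, adjusted p = 5.14e-05) and remained 2.05-fold above Mock (log2 1.04, SE 0.0521, adjusted p = 3.91e-08).

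Fzd8, a receptor that often acts through beta-catenin, followed the same order at a lower level, with 2.21, 2.40 and 2.15 CPM in Mock, 5.20, 5.31 and 4.40 CPM in Auxin and 3.98, 3.27 and 3.87 CPM in Reintroduction. Its groups did not overlap, and the log2 fold changes were 1.14 in Auxin against Mock (SE 0.114, adjusted p = 3.29e-06), -0.41 in Reintroduction against Auxin (SE 0.111, adjusted p = 0.00917) and 0.72 in Reintroduction against Mock (SE 0.116, adjusted p = 0.000202). Fzd4, which also serves as the receptor for Norrin in the retina, had 3.82, 3.83 and 4.03 CPM in Mock, 5.98, 6.07 and 5.67 CPM in Auxin and 4.23, 4.25 and 5.06 CPM in Reintroduction. The groups of Fzd4 did not overlap, with Auxin highest. It rose by 0.60 (log2, SE 0.092, adjusted p = 0.00011) in Auxin against Mock, and this value was 0.30 with the length trends of the libraries removed. Fzd4 fell by 0.38 on the log2 scale in Reintroduction against Auxin (SE 0.0924, adjusted p = 0.00503), and its difference from Mock after washout did not pass (log2 0.22, adjusted p = 0.0577), with a sign that changed to -0.08 once length trends were removed.

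Fzd6 and Fzd3, receptors known from planar cell polarity, rose in Auxin and did not pass the threshold between Auxin and Reintroduction. Fzd6 stood at 5.90, 5.61 and 5.34 CPM in Mock, 14.1, 12.9 and 13.9 CPM in Auxin and 12.9, 12.6 and 14.1 CPM in Reintroduction. The Auxin and Reintroduction libraries of Fzd6 overlapped, and all 6 were above all 3 Mock libraries. Fzd6 rose 2.43-fold in Auxin against Mock (log2 1.28, SE 0.0734, adjusted p = 3.65e-08) and was 2.35-fold higher in Reintroduction than in Mock (log2 1.23, SE 0.0737, adjusted p = 1.32e-07), with -0.05 between the treated groups (adjusted p = 0.612). Fzd3 had 4.49, 4.84 and 4.66 CPM in Mock, 10.1, 6.97 and 9.38 CPM in Auxin and 9.05, 11.1 and 10.7 CPM in Reintroduction. Auxin replicate 2 was the lowest treated library for Fzd3, and still above Mock. The log2 fold changes of Fzd3 were 0.92 in Auxin against Mock (SE 0.132, adjusted p = 6.79e-05) and 1.14 in Reintroduction against Mock (SE 0.132, adjusted p = 1.82e-05). Between Reintroduction and Auxin the value for Fzd3 was 0.22 (adjusted p = 0.181), and -0.01 once length and GC trends were removed.

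Fzd10 and Fzd2 went the other way. Fzd10 (ENSMUSG00000081683.5; chromosome 5, 128600844 to 128604093) stood at 73.1, 74.1 and 71.5 CPM in Mock, 46.3, 54.6 and 47.6 CPM in Auxin and 54.7, 57.3 and 55.8 CPM in Reintroduction. All Mock libraries were above all others, and the highest Auxin library (replicate 2) lay just under the lowest Reintroduction library. Fzd10 fell by 0.56 on the log2 scale in Auxin against Mock (SE 0.0642, adjusted p = 1.1e-05) and was lower in Reintroduction than in Mock (log2 -0.38, SE 0.0641, adjusted p = 0.000288). Its small difference between Reintroduction and Auxin, 0.18 (SE 0.0643, adjusted p = 0.0403), lost the call without Auxin replicate 1 (0.12, adjusted p = 0.176), Auxin replicate 3 (0.15, adjusted p = 0.117) or Reintroduction replicate 1 (0.18, adjusted p = 0.0744), replicate 2 (0.16, adjusted p = 0.117) or replicate 3 (0.17, adjusted p = 0.0984). It also lost it under total-count scaling (0.10, adjusted p = 0.206).

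Fzd2, a receptor often linked to Wnt5a, had 5.05, 4.74 and 4.80 CPM in Mock, 2.66, 2.85 and 2.23 CPM in Auxin and 3.05, 3.74 and 3.25 CPM in Reintroduction, again with Mock highest and no overlap. It fell by 0.91 on the log2 scale in Auxin against Mock (SE 0.114, adjusted p = 2.21e-05) and was lower in Reintroduction than in Mock (log2 -0.55, SE 0.113, adjusted p = 0.00124). Fzd2 was 0.36 higher (log2, SE 0.118, adjusted p = 0.0239) in Reintroduction than in Auxin, a call lost without Auxin replicate 3 (0.27, adjusted p = 0.0831), Reintroduction replicate 2 (0.29, adjusted p = 0.086) or Reintroduction replicate 3 (0.37, adjusted p = 0.0513).

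The dominant receptor Fzd5 moved little. It stood at 197, 207 and 198 CPM in Mock, 225, 230.2 and 215 CPM in Auxin and 236, 242 and 238 CPM in Reintroduction, with no overlap between groups. Its log2 fold change of 0.16 in Auxin against Mock (SE 0.0484, adjusted p = 0.0128) did not pass without Mock replicate 1 (0.13, adjusted p = 0.0571) or Mock replicate 3 (0.13, adjusted p = 0.0676) and turned to -0.16 with length trends removed. Likewise 0.25 in Reintroduction against Mock (SE 0.0484, adjusted p = 0.000827) turned to -0.06, so no direction is given for Fzd5 against Mock. Fzd1 was low, with 0.175, 0.338 and 0.112 CPM in Mock, 0.829, 0.761 and 1.10 CPM in Auxin and 0.477, 0.0891 and 0.355 CPM in Reintroduction. It was higher in Auxin than in Mock (log2 2.08, SE 0.444, adjusted p = 0.0013) and lower in Reintroduction than in Auxin (log2 -1.43, SE 0.429, adjusted p = 0.0163), the latter not without Auxin replicate 3 (-1.27, adjusted p = 0.0514). Fzd9 passed in no comparison, with 0.906 to 1.69 CPM over the 9 libraries.

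**Figure D3:**
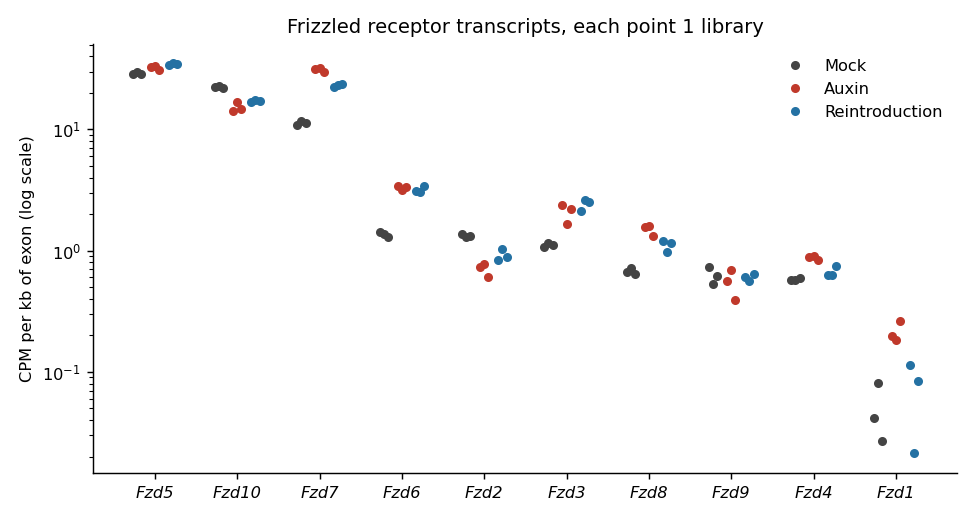
CPM per kilobase of exon of the 10 Frizzled transcripts on a log axis, each point 1 library, in the order of their Mock means. Fzd7 moves from 11.3 (Mock mean) to 31.0 CPM per kb (Auxin mean), up to the level range of Fzd5, while Fzd10 moves down.

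Secreted inhibitors catch Wnt ligands (the Sfrp proteins) or block the Lrp coreceptors (Dkk1). All 6 that were tested passed in Auxin against Mock, Sfrp1 higher and the other 5 lower, and the same count in each direction was found in Reintroduction against Mock. In Reintroduction against Auxin only Sfrp1 and Sfrp4 were called, both higher. Over all genes tested, 73.2% were called in Auxin against Mock, 68.1% in Reintroduction against Mock and 50.9% in Reintroduction against Auxin. Dkk2 had 0 counts in all 9 libraries.

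Sfrp1 (ENSMUSG00000031548.7; chromosome 8, 23411502 to 23449632) was the most abundant of them by far, and on the scale of CPM per kb its Mock mean of 30.6 was above that of Fzd5. It stood at 133, 137 and 132 CPM in Mock, 227, 237 and 217 CPM in Auxin and 259.9, 268 and 276 CPM in Reintroduction. The groups did not overlap, and Reintroduction was the highest. Sfrp1 rose 1.7-fold in Auxin (log2 0.76, SE 0.0514, adjusted p = 1.3e-07), a further 1.18-fold in Reintroduction against Auxin (log2 0.24, SE 0.0511, adjusted p = 0.00249) and 2-fold in Reintroduction against Mock (log2 1.00, SE 0.0516, adjusted p = 4.71e-08).

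Sfrp2, Sfrp4 and Sfrp5, members of the same family, were lower in Auxin. Sfrp2 stood at 4.03, 4.04 and 4.21 CPM in Mock, 2.12, 1.92 and 1.93 CPM in Auxin and 2.21, 2.18 and 2.12 CPM in Reintroduction. All Mock libraries were above the other 6, in which Auxin and Reintroduction overlapped. Sfrp2 fell by 1.04 on the log2 scale in Auxin against Mock (SE 0.0946, adjusted p = 1.54e-06) and was lower in Reintroduction than in Mock (log2 -0.92, SE 0.095, adjusted p = 7.75e-06), with 0.12 between Reintroduction and Auxin (adjusted p = 0.326).

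Sfrp4 had 3.00, 2.84 and 2.45 CPM in Mock, 1.13, 1.08 and 1.45 CPM in Auxin and 1.73, 1.54 and 1.91 CPM in Reintroduction, with no overlap and Reintroduction in the middle. Its log2 fold changes were -1.19 in Auxin against Mock (SE 0.15, adjusted p = 2.33e-05) and -0.67 in Reintroduction against Mock (SE 0.146, adjusted p = 0.00179). The rise of Sfrp4 after washout, 0.52 (SE 0.156, adjusted p = 0.0168), did not pass without Auxin replicate 1 (0.46, adjusted p = 0.066) or Reintroduction replicate 3 (0.42, adjusted p = 0.0806).

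Sfrp5 had the steepest fall of the tested Wnt genes in Auxin against Mock, from 1.55, 1.48 and 0.588 CPM in Mock to 0.0854, 0.131 and 0.131 CPM in Auxin, with 0.301, 0.0891 and 0.184 CPM in Reintroduction. Mock replicate 3 was the lowest of its group and still above all treated libraries. Sfrp5 was 10.5-fold lower in Auxin than in Mock (log2 -3.39, SE 0.462, adjusted p = 4.46e-05) and was 5.94-fold lower in Reintroduction than in Mock (log2 -2.57, SE 0.429, adjusted p = 0.000274). The 0.82 between Reintroduction and Auxin did not pass (adjusted p = 0.264).

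Dkk1, the classical Lrp-blocking inhibitor and itself a beta-catenin target, was low at 0.611, 0.495 and 0.574 CPM in Mock, 0.171, 0.223 and 0.146 CPM in Auxin and 0.138, 0.156 and 0.306 CPM in Reintroduction. Dkk1 was 3.09-fold lower in Auxin than in Mock (log2 -1.63, SE 0.326, adjusted p = 0.000854) and 2.72-fold lower in Reintroduction than in Mock (log2 -1.44, SE 0.326, adjusted p = 0.00227). Dkk3, a divergent member of the family, had 2.69, 2.58 and 2.84 CPM in Mock, 1.72, 1.56 and 2.10 CPM in Auxin and 1.54, 1.36 and 1.31 CPM in Reintroduction. Its groups did not overlap, and the washout libraries were the lowest. Dkk3 fell by 0.59 on the log2 scale in Auxin against Mock (SE 0.133, adjusted p = 0.00185) and by 0.94 in Reintroduction against Mock (SE 0.138, adjusted p = 0.000107). The Dkk3 difference between Reintroduction and Auxin was -0.35 (adjusted p = 0.0625), and it passed without Auxin replicate 2 (-0.45, adjusted p = 0.0213).

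**Figure D4:**
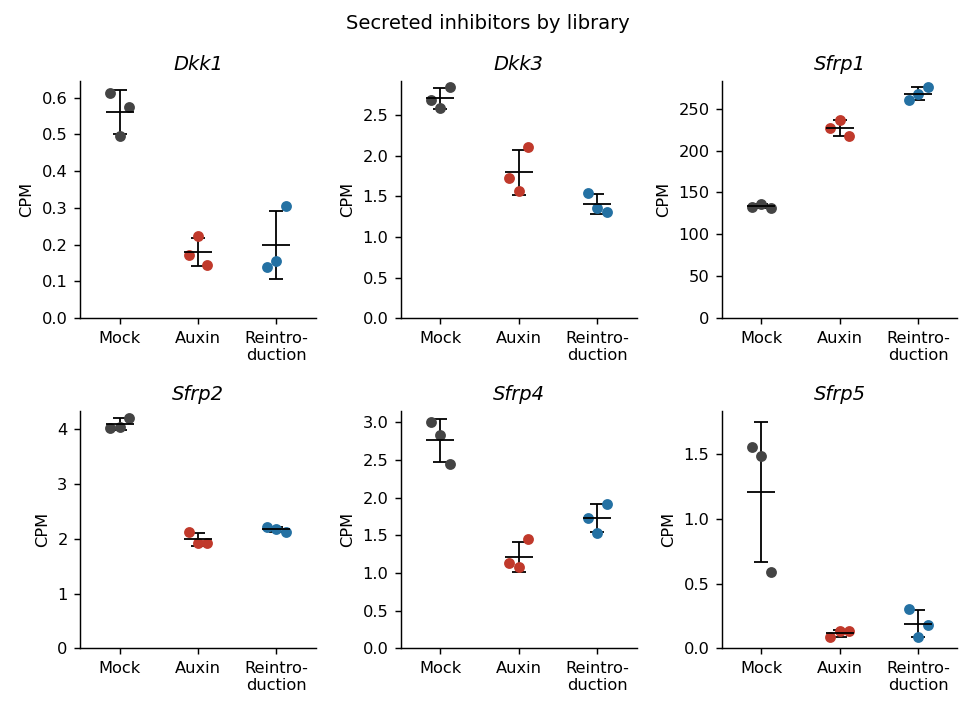
CPM of Dkk1, Dkk3, Sfrp1, Sfrp2, Sfrp4 and Sfrp5 in each library (points), with group mean and SD (lines and bars, n = 3), on linear axes from 0. Sfrp1 rises from a Mock mean of 134 CPM to 227 CPM in Auxin and 268 CPM in Reintroduction, while the other 5 are highest in Mock.

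R-spondins strengthen Wnt signals by protecting Frizzled receptors from removal. Rspo1 was the only R-spondin to pass the filter, with 0.427, 0.483 and 0.294 CPM in Mock, 0.134, 0.105 and 0.219 CPM in Auxin and 0.213, 0.200 and 0.0245 CPM in Reintroduction. It was lower in Auxin than in Mock (log2 -1.41, SE 0.511, adjusted p = 0.0272) and lower in Reintroduction than in Mock (log2 -1.53, SE 0.53, adjusted p = 0.0241). The Rspo1 call in Auxin against Mock was lost without Mock replicate 1 (-1.37), Mock replicate 2 (-1.27), Auxin replicate 1 (-1.33) or Auxin replicate 2 (-1.21), and that in Reintroduction against Mock without Mock replicate 1 (adjusted p = 0.0601), Mock replicate 2 (-1.40, adjusted p = 0.0706) or Reintroduction replicate 3, where it was only -0.97 (adjusted p = 0.0585). Rspo2, Rspo3 and Rspo4 had between 0 and 11 counts in any library.

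The nuclear effectors did not move as a block. Tcf7 and Lef1, which encode DNA-binding partners of beta-catenin and are known targets of it, were lower in Auxin, whereas Ctnnb1, the gene for beta-catenin, was slightly higher. Tcf7 (ENSMUSG00000000782.15; chromosome 11, 52252371 to 52283014) stood at 51.2, 50.0 and 46.7 CPM in Mock, 21.6, 23.5 and 19.5 CPM in Auxin and 46.5, 44.2 and 46.2 CPM in Reintroduction. Auxin was far below both other groups, and the highest Reintroduction library lay just under the lowest Mock library. Tcf7 was 2.29-fold lower in Auxin than in Mock (SE 0.0714 on the log2 scale, adjusted p = 4.95e-08) and 2.12-fold higher in Reintroduction than in Auxin (log2 1.09, SE 0.0715, adjusted p = 4.72e-07). Between Reintroduction and Mock its difference of -0.11 (SE 0.07, adjusted p = 0.175) did not pass, and its sign changed to 0.02 with total-count scaling.

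Lef1 was far lower, at 1.52, 1.42 and 1.54 CPM in Mock, 0.634, 0.682 and 0.745 CPM in Auxin and 0.351, 0.624 and 0.527 CPM in Reintroduction, and unlike Tcf7 it had its lowest libraries after washout. It fell by 1.12 on the log2 scale in Auxin against Mock (SE 0.188, adjusted p = 0.000228) and by 1.61 in Reintroduction against Mock (SE 0.2, adjusted p = 3.02e-05). The Lef1 difference between Reintroduction and Auxin was -0.49 (adjusted p = 0.0798), and -0.64 with a call (adjusted p = 0.0411) without Reintroduction replicate 2.

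Ctnnb1 (ENSMUSG00000006932.16; chromosome 9, 120929216 to 120960507), which also serves cell adhesion, had 719, 747 and 711 CPM in Mock, 921, 979 and 892 CPM in Auxin and 850.1, 862 and 897 CPM in Reintroduction. All Mock libraries were below the other 6. It rose by 0.36 (log2, SE 0.0546, adjusted p = 0.000106) in Auxin against Mock. That value was 0.22 with length trends removed and 0.57 under total counts, and both passed. In Reintroduction against Mock Ctnnb1 rose by 0.26 (SE 0.0546, adjusted p = 0.00135). There the value was 0.11 and no longer passed once length trends were removed (adjusted p = 0.0898). Between Reintroduction and Auxin the Ctnnb1 value was -0.10 (adjusted p = 0.159).

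Tcf7l1 encodes TCF3, which in stem cells mainly represses Wnt targets. It stood at 38.5, 36.8 and 34.0 CPM in Mock, 40.6, 42.1 and 38.3 CPM in Auxin and 41.9, 40.1 and 41.2 CPM in Reintroduction, where Mock and Auxin overlapped. Its log2 fold changes were 0.15 in Auxin against Mock (SE 0.061, adjusted p = 0.0489), 0.03 in Reintroduction against Auxin (adjusted p = 0.75) and 0.17 in Reintroduction against Mock (SE 0.0611, adjusted p = 0.0264). Under total counts the values in Auxin and in Reintroduction against Mock were larger, 0.357 and 0.304. They were 0.273 and 0.275 with length and GC trends removed, and the calls held in both settings. With the DESeq2 Wald test neither of the calls for Tcf7l1 held (adjusted p = 0.156 in Auxin against Mock and 0.0646 in Reintroduction against Mock). Without Mock replicate 3 they were 0.09 (adjusted p = 0.25) and 0.10 (adjusted p = 0.186), and the first was lost without Mock replicate 2, Auxin replicate 1 or Auxin replicate 2 as well, the second without Mock replicate 2, Reintroduction replicate 1 or Reintroduction replicate 3.

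Among the 6 feedback regulators and targets, 3 fell and returned in part. Axin2, Notum and Sp5 were lower in Auxin than in Mock, higher in Reintroduction than in Auxin and still lower than in Mock after 4.5 h of washout. Lgr5 was lower than in Mock in both treated groups, and Nkd2 was lower only in tests of the washout libraries.

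Axin2 (ENSMUSG00000000142.15; chromosome 11, 108920349 to 108950783) encodes a scaffold of the destruction complex and is the most widely used readout of beta-catenin activity. It stood at 52.8, 54.3 and 53.9 CPM in Mock, 23.8, 23.9 and 23.3 CPM in Auxin and 41.8, 45.0 and 42.4 CPM in Reintroduction. The spread within each group was small, and the groups were fully apart. Axin2 fell by 1.18 on the log2 scale in Auxin against Mock (SE 0.0506, adjusted p = 4.12e-09), 2.27-fold, and rose 1.82-fold in Reintroduction against Auxin (log2 0.86, SE 0.0506, adjusted p = 1.98e-07). It was then 1.25-fold below Mock (log2 -0.32, SE 0.0497, adjusted p = 0.000173), a value that was -0.19 under total-count scaling and -0.51 with length trends removed.

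Notum (ENSMUSG00000042988.10; chromosome 11, 120653788 to 120661175) encodes an enzyme that strips the lipid from Wnt proteins. It had 19.4, 16.7 and 18.1 CPM in Mock, 2.66, 2.99 and 2.60 CPM in Auxin and 7.53, 6.08 and 5.76 CPM in Reintroduction. Mock was far above both other groups, and the Auxin libraries were the lowest. Notum fell by 2.72 on the log2 scale in Auxin against Mock (SE 0.114, adjusted p = 3.67e-09), 6.57-fold, rose 2.35-fold in Reintroduction against Auxin (log2 1.23, SE 0.116, adjusted p = 6.76e-06) and was still 2.79-fold below Mock (log2 -1.48, SE 0.107, adjusted p = 5.07e-07). It shares exon sequence with the antisense genes Notumos and Myadml2os, so its counts are less certain.

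Sp5 (ENSMUSG00000075304.2; chromosome 2, 70474923 to 70477729) encodes a zinc-finger factor that is a direct beta-catenin target, and its promoter word is shown above. It stood at 33.7, 29.4 and 28.2 CPM in Mock, 8.50, 10.1 and 8.02 CPM in Auxin and 20.5, 22.6 and 22.7 CPM in Reintroduction. The groups did not overlap, with Reintroduction closer to Mock than to Auxin. Sp5 fell by 1.78 on the log2 scale in Auxin against Mock (SE 0.0978, adjusted p = 2.61e-08), 3.43-fold, and rose 2.47-fold in Reintroduction against Auxin (log2 1.30, SE 0.0978, adjusted p = 1.22e-06). Against Mock the value after washout was -0.47 (SE 0.0937, adjusted p = 0.000929), or -0.20 with length and GC trends removed.

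Nkd2, which binds Dishevelled and dampens signalling, had 1.15, 1.01 and 0.923 CPM in Mock, 0.939, 0.761 and 0.920 CPM in Auxin and 0.402, 0.446 and 0.478 CPM in Reintroduction. Mock and Auxin overlapped, and all washout libraries were below them. Nkd2 fell by 0.98 on the log2 scale in Reintroduction against Auxin (SE 0.19, adjusted p = 0.00128) and by 1.22 against Mock (SE 0.186, adjusted p = 0.00014), with -0.24 in Auxin against Mock (adjusted p = 0.22). Its relative Nkd1 had 1.06, 0.978 and 1.16 CPM in Mock, 1.04, 1.15 and 1.18 CPM in Auxin and 1.56, 1.38 and 1.21 CPM in Reintroduction. The only Nkd1 call, 0.38 in Reintroduction against Mock (SE 0.152, adjusted p = 0.0448), was lost with the DESeq2 Wald test (adjusted p = 0.0954), without any 1 of the Mock replicates (0.30 to 0.42, adjusted p between 0.0582 and 0.157) and without Reintroduction replicate 1 (0.25, adjusted p = 0.212) or replicate 2 (0.38, adjusted p = 0.079). Lgr5, a receptor for R-spondins and a stem cell marker in gut, was low at 0.485, 0.640 and 0.518 CPM in Mock, 0.110, 0.105 and 0.131 CPM in Auxin and 0.0878, 0.0891 and 0.135 CPM in Reintroduction. It was 4.71-fold lower in Auxin than in Mock (log2 -2.23, SE 0.293, adjusted p = 3.23e-05) and 5.09-fold lower in Reintroduction than in Mock (log2 -2.35, SE 0.303, adjusted p = 4.02e-05).

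**Figure D5:**
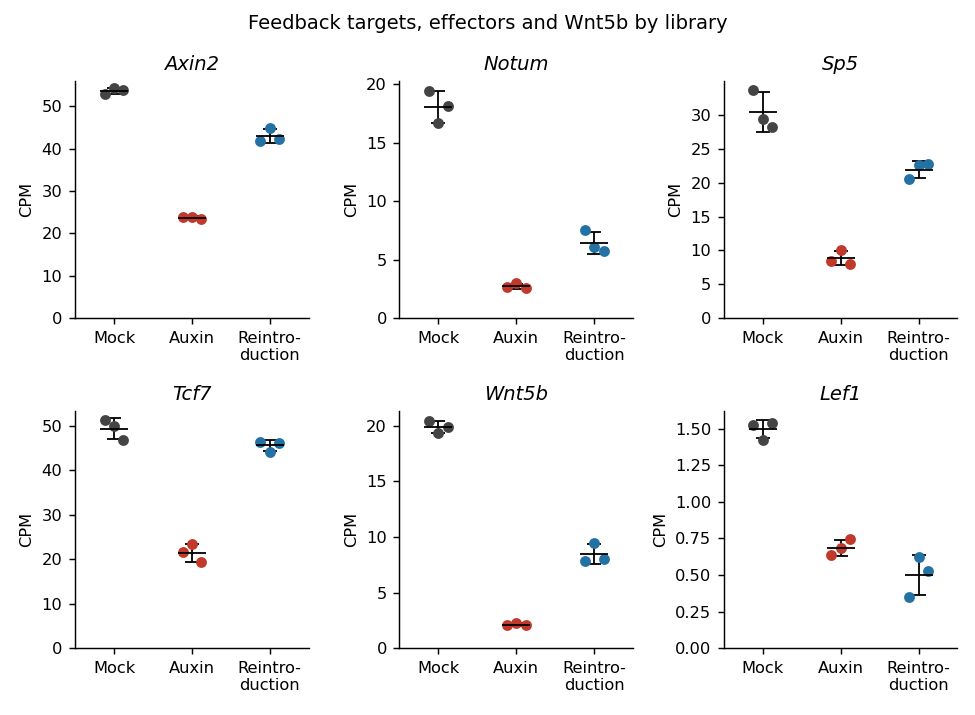
CPM of the feedback genes Axin2, Notum and Sp5, the effectors Tcf7 and Lef1 and the ligand Wnt5b in each library (points), with group mean and SD (lines and bars, n = 3), on linear axes from 0. In all panels but that of Lef1, Reintroduction lies between Auxin and Mock; the Lef1 mean is 0.687 CPM in Auxin and 0.501 CPM after washout.

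Summed markers of mesoderm and the primitive streak were, like Axin2, Notum and Sp5, lowest in Auxin. Of 7 mesoderm and streak markers, which summed to 48.6 to 50.0 CPM in Mock, 27.7 to 30.5 CPM in Auxin and 70.7 to 73.6 CPM in Reintroduction, T, Mixl1 and Eomes were lower and Kdr was higher in Auxin against Mock. T and Eomes were higher in Reintroduction than in Auxin. In Reintroduction against Mock the list was split, with Eomes (log2 0.92) and Kdr (1.37) higher and T (-2.84) and Mixl1 (-2.04) lower. Eomes alone made up most of the sum, at 35.4, 25.6 and 66.9 CPM on average in Mock, Auxin and Reintroduction. The part of such cells in the target genes' values was not tested.

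Other genes of the pathway were counted from 6 further lists, and each log2 fold change given for them passed the threshold unless said otherwise. Of the genes named from these lists, Kremen2, Tpbg, Ccnd1, Tfcp2l1, Dvl2, Vangl1, Tle1, Tle2, Chd8 and Invs share exon sequence with another gene. So do several that are only counted, such as Dvl1, Csnk1d, Csnk1e and Gsk3a. Of 12 other genes known to be induced by beta-catenin in stem cells or embryos, all tested, 91.7%, 66.7% and 91.7% were called. Over all genes tested the shares were 73.2%, 50.9% and 68.1%. Of these all genes, 34.8% were lower in Auxin against Mock and 33.4% in Reintroduction against Mock. In Auxin against Mock 9 of the 12 were lower and 2 (Esrrb and Tfcp2l1, both pluripotency factors) higher, with log2 fold changes of -5.23 for T, -4.32 for Cdx2 and -3.29 for Myc. Without Auxin replicate 2 the value of Cdx2 was -6.84. In Reintroduction against Auxin 5 of the 12 were higher and 3 lower, with 2.40 for T, 2.17 for Ccnd1, 1.90 for Myc and 3.18 for Cdx2, which was below 1 CPM in both groups. In Reintroduction against Mock 2 were higher and 9 lower, with -2.84 for T, -2.04 for Mixl1 and -1.40 for Myc. Ccnd1, which encodes a cyclin of the G1 phase, stood at 153, 164 and 159 CPM in Mock, 19.7, 21.1 and 19.4 CPM in Auxin and 88.1, 91.2 and 91.9 CPM in Reintroduction.

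Of 12 genes for Wnt secretion and coreceptors, 5 were higher and 5 lower in Auxin against Mock, 3 higher and 5 lower in Reintroduction against Auxin, and 4 and 4 in Reintroduction against Mock. The shares called were 83.3%, 66.7% and 66.7%, against 73.2%, 50.9% and 68.1% of all genes. Wls, the carrier that brings Wnt ligands to the cell surface, had 5.00, 5.58 and 5.20 CPM in Mock, 47.3, 45.1 and 43.9 CPM in Auxin and 17.2, 17.3 and 18.2 CPM in Reintroduction. It rose 8.64-fold in Auxin against Mock (log2 3.11, SE 0.0655, adjusted p = 7.8e-11), fell by 1.37 on the log2 scale in Reintroduction against Auxin (SE 0.0605, adjusted p = 2.34e-08) and stayed 3.34-fold above Mock (log2 1.74, SE 0.0643, adjusted p = 6.13e-09), or at 1.12 on the log2 scale with length and GC trends removed. Porcn, the enzyme that adds the lipid to Wnt ligands, was 0.59 higher in Auxin than in Mock and fell by 0.72 on the log2 scale after washout. The Dickkopf coreceptor genes Kremen1 and Kremen2 had log2 fold changes of 1.11 and -2.77 in Auxin against Mock. With length trends removed Kremen1 was at 0.73 in that comparison. Kremen2 was at -2.79 and Ptk7, a pseudokinase of planar polarity, at -1.17 in Reintroduction against Mock, and Lgr6 was at -0.56 in Reintroduction against Auxin.

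Of 14 genes of the destruction complex and cytoplasmic transducers, 64.3%, 35.7% and 71.4% were called, against 73.2%, 50.9% and 68.1% of all genes. In Auxin against Mock 8 were higher and 1 lower, with 0.77 for Csnk1a1, 0.65 for Btrc and 0.54 for Apc. With length trends removed Csnk1a1 was at 0.23 and Btrc at 0.39, and with GC trends also removed they were at 0.16 and 0.29. Apc turned to -0.22 once length trends were removed and lost its call without Mock replicate 1 (0.41), Mock replicate 3 (0.58), Auxin replicate 1 (0.47) or Auxin replicate 3 (0.34). In Reintroduction against Auxin 2 were higher and 3 lower, led by Dvl2 (-0.87), Amer1 (0.65) and Csnk1a1 (-0.48). In Reintroduction against Mock 7 were higher and 3 lower, led by Apc (1.04, or 0.25 and not called with length trends removed), Gsk3b (0.77, or 0.26 with them removed) and Dvl2 (-0.77). Of 11 nuclear cofactors, 4 were higher and 5 lower in Auxin against Mock, 4 higher and 1 lower in Reintroduction against Auxin, and 6 higher and 3 lower in Reintroduction against Mock. Their shares called were 81.8%, 45.5% and 81.8%. The cofactor Pygo1 had the largest rise in Auxin against Mock (2.02), beside -1.64 for Tle2 and 0.90 for Tle3 (0.32 with length trends removed), which encode Groucho-type repressors. After washout the values against Auxin were -0.58 for Tle3, 0.48 for Chd8 and 0.39 for Tle1, and against Mock 1.92 for Pygo1, -1.23 for Tle2 and 0.89 for Bcl9l.

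Of 9 other secreted or membrane inhibitors, 5 were tested: 3 were higher and 2 lower in Auxin against Mock, 3 higher in Reintroduction against Auxin and 3 higher in Reintroduction against Mock. Among those tested the shares called were 100%, 60% and 60%, against 73.2%, 50.9% and 68.1% of all genes. Wif1, which binds Wnt ligands, was below 1 CPM in every library and had the largest called changes, -2.43 in Auxin against Mock (SE 0.485, adjusted p = 0.000835) and 1.88 in Reintroduction against Auxin (SE 0.519, adjusted p = 0.0107). Tpbg had 0.87, 0.57 and 1.44 in the 3 comparisons in that order, Rnf43, a ligase that removes Frizzleds, 0.72 in Auxin and 0.49 in Reintroduction against Mock, its relative Znrf3 0.56 in Reintroduction against Mock (0.18 with length trends removed), and Apcdd1 -0.50 in Auxin against Mock and 0.64 in Reintroduction against Auxin. With length trends removed the Auxin against Mock value of Rnf43 was 0.428. The Rnf43 call in Reintroduction against Mock was lost with length trends removed (0.21, adjusted p = 0.252) and without Mock replicate 1 (0.46), Mock replicate 2 (0.41) or Reintroduction replicate 1 (0.43). Of 10 planar polarity genes, 6 were higher and 2 lower in Auxin against Mock, 3 higher and 4 lower in Reintroduction against Auxin, and 6 higher and 1 lower in Reintroduction against Mock. Here the shares called were 80%, 70% and 70%. Celsr1, a polarity cadherin, stood at 10.3, 10.6 and 10.6 CPM in Mock, 59.6, 56.2 and 54.2 CPM in Auxin and 38.1, 41.8 and 42.1 CPM in Reintroduction, 5.41-fold higher in Auxin than in Mock (log2 2.44, SE 0.0628, adjusted p = 1.64e-10). Prickle2 and Daam1 followed at 1.67 and 1.43 in Auxin against Mock and at 2.17 and 1.39 in Reintroduction against Mock, where Celsr1 was at 1.96. In Reintroduction against Auxin the values were -1.14 for Celsr2, -0.89 for Invs and 0.87 for Vangl1.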

How the data were processed

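Poly(A) RNA of 9 libraries, 3 per group, was sequenced on a NextSeq 500, per the labels. The authors deposited raw counts per gene: per the file headers, featureCounts 2.0.6 counted reads over exons by gene identifier on mm10, for paired libraries without pair counting, so each mate counted, and with no strand option. The submitters' processing notes also name Trim Galore 0.6.10, FastQC 0.12.1, Bowtie2 2.5.3 and SAMtools 1.20, without their roles. Totals ranged from 44341283 to 113931419 counts, and this depth limits genes under about 1 CPM most.

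From the counts, edgeR 4.0.16 (limma 3.58.1, R 4.3.3) fitted 1 quasi-likelihood model to all 9 libraries with TMM factors and the filterByExpr filter (20838 genes), and p-values were Benjamini-Hochberg adjusted over all genes tested. CPM used TMM-scaled library sizes, and CPM per kb also the exon length in the files. A symbol was matched for 48058 of 48440 genes.

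The members and lists were chosen with earlier results of these data known. Genes were given in full, up to 30, where a comparison called them, its groups did not overlap and the mean of the higher one reached 1 CPM, with Ctnnb1, Tcf7l1 and Axin2 regardless. Low called genes, and up to 3 genes with the largest called changes among those whose higher mean reached 1 CPM, for each other list and comparison, were given more briefly. Wls and Celsr1, and other genes outside these rules, were chosen for their values. The labels call replicates biological. The labels do not say that replicate numbers mark a shared culture or day, so the main fit used no block. Same-numbered replicates did not deviate together (correlations -0.172 to 0.055). Alternatives were DESeq2 1.42.0, other scalings and filters, removal of length and GC trends, a replicate block, halved counts, 2-group fits, a fold threshold and leaving out each library. The pipeline was tested on simulated data.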

Additional observations from a re-analysis of the deposited data

How the results depend on the processing

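Of the calls among the Wnt genes, 25 of 29 held under every alternative that tested them in Auxin against Mock (exceptions Wnt2b, Fzd5, Rspo1 and Tcf7l1), 15 of 20 in Reintroduction against Auxin (exceptions Wnt4, Fzd1, Fzd2, Fzd10 and Sfrp4) and 22 of 28 in Reintroduction against Mock (exceptions Wnt9a, Fzd5, Nkd1, Rspo1, Tcf7l1 and Ctnnb1). Leaving out 1 library at a time gave 27 to 29, 17 to 21 and 25 to 27 calls. With a fold change of at least 2 also required, the calls were 19 (6 higher, 13 lower), 10 (7 higher, 3 lower) and 16 (7 higher, 9 lower). With a filter of 1 CPM in 3 libraries, 24 Wnt genes were tested and 10 were lower in Reintroduction against Mock. The DESeq2 Wald test gave 29, 20 and 26 calls. The labels do not say whether replicate numbers pair the libraries. With the replicate block the calls were 27, 20 and 27, or 29, 20 and 23 with the block and length trends removed. The median log2 fold change in Reintroduction against Mock, -0.11, was 0.0188 under total-count scaling.

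Signs changed as follows. Wnt6 in Auxin against Mock was 0.13 under total counts, 0.0894 with length trends removed, 0.0912 with the block as well, 0.23 with length and GC trends removed, and -0.22 to 0.0853 when leaving out 1 library. Fzd5 in Auxin against Mock was -0.16 with length trends removed, with or without the block (called lower, adjusted p = 0.0155 and 0.0149), and -0.10 with length and GC trends removed, and in Reintroduction against Mock -0.0625 with length trends removed and -0.0619 with the block as well. Apc in Auxin against Mock was -0.22, -0.26 with GC also removed and -0.23 with the block. Fzd3 in Reintroduction against Auxin was -0.0148 with length and GC trends removed. Fzd4 in Reintroduction against Mock was -0.0775 with length trends removed, -0.0807 with the block as well and -0.0642 with GC also removed. Tcf7 in Reintroduction against Mock was 0.0188 under total counts and 0.10 with length and GC trends removed. Tcf7l1 in Reintroduction against Auxin was -0.053 under total counts, -0.0215 with the 1 CPM filter, -0.0172 with length trends removed, -0.0159 with the block as well, -0.0037 with halved counts and -0.0083 to 0.046 when leaving out 1 library. The cause was not tested.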
